A study of Mus musculus with 5 samples.

Results

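The 10 genes described here act in adipogenesis and lipid handling, and were followed in Prx1-derived cells of mouse hindlimb muscle. They are Pparg, Cebpa, Lpl, Cd36, Fabp4, Fabp5, Apoe, Apod, Plin2 and G0s2. All 10 were found by symbol among the 31055 genes listed in each library. The genes were chosen by name and function and not by a measured value, but with earlier results of these data known.

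GFP+ cells were sorted from skeletal muscle of Prx1Cre;mTmG mice on a C57Bl/6 background, aged 10 to 14 weeks, and were analysed by droplet single-cell RNA sequencing (scRNAseq). Prx1Cre recombines in limb bud mesenchyme, so GFP marks every descendant of that lineage in the limb and not 1 cell type. The 5 libraries are d0 (uninjured muscle), d3 and d5 after non-stabilized tibial fracture, and d3 and d5 after polytrauma, in which the muscles around the tibia were also compressed. Each library pooled 2 mice and each condition had 1 library, so no difference between conditions could be tested against the spread between mice, and no p-value is given. Tendon and fat were removed in the dissection, which bears on any search for adipocytes.

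The conditions of 2 libraries follow the cell numbers in the source data of the study and not the deposited labels. The library used as d5 fracture, labelled d3 post-polytrauma, held 2001 barcodes, and the library used as d3 polytrauma, labelled d5 post-fracture, held 6915. The ratios of the 10 genes, and the counts of them past 2-fold, were also computed with the conditions as labelled. Both d5 libraries drew on another set of barcode sequences than the other 3 libraries. The d5 pair shared 944 barcodes and the other libraries shared 405 to 525 in pairs, while at most 3 were shared across the sets. A difference between d5 and earlier times therefore cannot be told apart from a difference in library preparation. Cells with 350 to 8000 detected genes, under 20% of unique molecular identifiers (UMIs) on mitochondrial genes and at least 1000 UMIs were kept, 29831 of 34439 barcodes. The libraries held 1468 to 11941 such cells, with medians of 3640 UMIs per cell at d0 and 15688 to 34949 after injury.

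Adipocytes store triglyceride in droplets and arise from mesenchymal progenitors when the transcription factors PPARγ and C/EBPα switch on the genes of fat uptake and storage. In skeletal muscle the fibro-adipogenic progenitors (FAP), interstitial mesenchymal cells that support muscle repair, are the known source of ectopic fat. Several of the genes described here also work outside fat cells: Fabp4 and Cd36 in capillary endothelium, Apoe and Cd36 in macrophages, and Apod in nerve sheath cells.

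Regulatory sequence was taken from RefSeq (GRCm38.p6), which listed promoters for 7 of the 10 genes. The 250 bases before the RefSeq start of transcription were searched on both strands for short motifs. These were the half-site AGGTCA of nuclear receptors and its direct repeat with 1 base between the copies (the site of PPARγ with its partner RXR). The others were TTGCNNAA (a loose form of the C/EBP site), TATAAA (the TATA box), GGGCGG (the GC box) and CACGTG (the E box). Any match to the direct repeat also counts as a match to the half-site. The promoters of Apod, Apoe and G0s2 are printed because these genes were high at d0 and low at d3 post-fracture, and that of Cebpa because it encodes the adipogenic factor measured well enough to compare. Each is written 5′ to 3′ on the strand of the gene, with matches in capitals.
Apod, chr16:31314809-31315058, minus strand: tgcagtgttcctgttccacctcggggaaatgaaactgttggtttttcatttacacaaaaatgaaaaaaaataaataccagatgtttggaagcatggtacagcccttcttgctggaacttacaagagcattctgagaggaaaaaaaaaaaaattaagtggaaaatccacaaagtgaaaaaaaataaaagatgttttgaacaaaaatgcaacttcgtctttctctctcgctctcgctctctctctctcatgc
Apoe, chr7:19699189-19699438, minus strand: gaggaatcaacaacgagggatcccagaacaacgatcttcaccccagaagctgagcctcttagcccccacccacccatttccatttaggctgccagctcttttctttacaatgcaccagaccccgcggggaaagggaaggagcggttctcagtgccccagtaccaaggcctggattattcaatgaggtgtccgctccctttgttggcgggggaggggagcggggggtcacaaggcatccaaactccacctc
G0s2, chr1:193273189-193273438, minus strand: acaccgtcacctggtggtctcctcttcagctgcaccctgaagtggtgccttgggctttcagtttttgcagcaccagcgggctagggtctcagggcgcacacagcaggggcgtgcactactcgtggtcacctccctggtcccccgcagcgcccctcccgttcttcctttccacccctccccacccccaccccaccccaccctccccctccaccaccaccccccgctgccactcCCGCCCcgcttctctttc
Cebpa, chr7:35119043-35119292, plus strand: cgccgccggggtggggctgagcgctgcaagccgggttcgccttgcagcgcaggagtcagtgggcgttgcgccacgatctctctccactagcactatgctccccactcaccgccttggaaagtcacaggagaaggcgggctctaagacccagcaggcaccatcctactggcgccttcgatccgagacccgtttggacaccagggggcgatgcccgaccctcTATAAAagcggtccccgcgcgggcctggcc
The Cebpa sequence held a TATA box that began 30 bases before the start, a motif present in 12.4% of the 32851 promoters of this length. A GC box (32.7% of promoters) began 18 bases before the RefSeq start of G0s2, on the other strand. That start lies 29 bases inside the gene as placed by GENCODE, so the box lies within the gene there. Apod and Apoe held no match to any of the 6 motifs, and their G and C content was 36.4% and 57.2%. The half-site AGGTCA occurred in the windows of Pparg, Plin2 and Cd36, against 14% of promoters. The full direct repeat (0.0335% of promoters) occurred in none of the 7. The RefSeq starts of Pparg and Cd36 lie 193 and 52905 bases from those of GENCODE, inside the genes as placed there. A match describes letters in the window and no binding was measured.

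Levels are given as UMIs of a gene per 1000000 UMIs of all genes summed over a library (CPM), with exact Poisson 95% intervals. Shares of cells with a UMI are given after 1000 UMIs had been drawn at random from every cell, which sets all libraries to 1 depth, with exact (Clopper-Pearson) 95% intervals. Both kinds of interval cover counting error only. Those of CPM and of its ratios take each UMI as drawn on its own. They are too narrow for genes whose UMIs lie in few cells, and intervals that do not overlap are no test. Fewer cells that express a gene, fewer of its transcripts per cell and more UMIs of other genes all lower a CPM. They cannot be told apart in it.

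Pparg, the master regulator of adipocyte differentiation (ENSMUSG00000000440, chr6:115360951-115490399), was near the limit of detection in every library. It had 1.32 CPM (0.836 to 1.98) at d0, 0.390 (0.277 to 0.533) at d3 post-fracture, 2.78 (2.34 to 3.27) at d5 post-fracture, 1.57 (1.34 to 1.83) at d3 post-polytrauma and 1.49 (1.32 to 1.67) at d5 post-polytrauma. These values rest on 23, 39, 144, 162 and 301 UMIs in that order. The intervals of d0 and both polytrauma libraries overlapped, d3 post-fracture lay below all others and d5 post-fracture above. At equal depth 0.0895% to 0.477% of cells had a Pparg UMI, and 1 cell held at most 8 UMIs. Pparg overlaps the gene Gm44079 on the other strand, and the use of strand in counting was not given in the sources used here.

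Cebpa (ENSMUSG00000034957, chr7:35119293-35121928), whose product maintains the adipocyte programme together with PPARγ, had 11.8 CPM (10.2 to 13.5) at d0, 2.58 (2.28 to 2.92) at d3 post-fracture, 12.3 (11.4 to 13.3) at d5 post-fracture, 3.19 (2.86 to 3.56) at d3 post-polytrauma and 6.15 (5.81 to 6.50) at d5 post-polytrauma. The d0 and d5 fracture values overlapped, both d3 libraries were low and d5 polytrauma lay between. Cebpa was highest, among clusters of at least 50 cells, in unnamed d0 cluster 8 (33.7 CPM, 19.6 to 54.0). This cluster held 112 cells and was led by Saa1, Thrsp and Dlk1. FAP/MP-like cluster 0 of d5 fracture had 30.3 CPM (25.8 to 35.3). Cebpa reached a like level in the hematopoietic-like cluster of d3 polytrauma (33.0 CPM, 19.2 to 52.8). In that of d5 polytrauma, with 29 cells, it had 45.5 CPM (24.2 to 77.8). Cebpa overlaps Gm45091 on the other strand.

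Lpl (ENSMUSG00000015568, chr8:68880491-68907448) encodes lipoprotein lipase, which releases fatty acids from circulating lipoproteins. Its level was 371 CPM (362 to 380) at d0, 24.7 (23.7 to 25.7) at d3 post-fracture, 86.1 (83.6 to 88.7) at d5 post-fracture, 75.8 (74.2 to 77.5) at d3 post-polytrauma and 27.5 (26.8 to 28.2) at d5 post-polytrauma. The order from high to low was d0, d5 fracture, d3 polytrauma, d5 polytrauma and d3 fracture, and no neighbouring intervals overlapped. The share of cells with an Lpl UMI at equal depth was 27.2% (25.9 to 28.5) at d0 and 2.89% to 9.56% after injury. In d0 it was 55.4% (45.7 to 64.8) in cluster 8 and 48.0% (43.9 to 52.1) in FAP/MP-like cluster 1, against 9.68% (7.67 to 12.0) in the pericyte-like cluster, whose median depth of 4317.5 UMIs was close to that of cluster 8 (4460.5).

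Cd36 (ENSMUSG00000002944, chr5:17781690-17888801), the fatty acid translocase, was rare in all libraries, with 8.37 CPM (7.07 to 9.85) at d0, 0.530 (0.397 to 0.694) at d3 post-fracture and 0.636 (0.438 to 0.894) at d5 post-fracture, and 1.79 (1.54 to 2.07) at d3 and 0.663 (0.555 to 0.785) at d5 post-polytrauma. The d0 pericyte-like cluster held 95.2% of its d0 UMIs. At d0, 23 cells with at least 2 UMIs of 5 endothelial markers held 23.3% of Cd36 UMIs. These shares overlap, so some of those cells were counted in the pericyte-like cluster. In that cluster 3.98% of cells (2.70 to 5.63) had a Cd36 UMI at equal depth, against 0 of 609 cells (upper bound 0.604%) in FAP/MP-like cluster 0. Both fracture libraries and d5 polytrauma overlapped, and d0 lay above all others. In FAP/MP-like clusters of all 5 libraries Cd36 lay between 0.184 and 0.541 CPM. The hematopoietic-like cluster of d3 polytrauma had 116 CPM (88.8 to 150), against 73.5 in the pericyte-like one. At d5 post-polytrauma the hematopoietic-like cluster of 29 cells had 234 CPM (182 to 298), against 19.0 in the pericyte-like one. In the d5 fracture library 13 of 1468 cells had a Cd36 UMI at full depth, and none did after thinning.

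Fabp4 (ENSMUSG00000062515, chr3:10204088-10208576), the fatty acid-binding protein of adipocytes and capillary endothelium, had 17.4 CPM (15.5 to 19.5) at d0, 20.7 (19.8 to 21.6) at d3 post-fracture and 21.2 (19.9 to 22.5) at d5 post-fracture, 15.2 (14.5 to 16) at d3 post-polytrauma and 59.3 (58.2 to 60.3) at d5 post-polytrauma. Both fracture libraries overlapped, as did d0 and d3 polytrauma, and d5 polytrauma stood apart. Its UMIs were concentrated in few cells, since the top 1% of cells held 89.1% of them at d0 and 34.6% to 57.6% after injury. The pericyte-like cluster held 91.8% of d0 UMIs at 86.2 CPM (76.4 to 96.9). The 23 d0 cells with endothelial markers held 54.9% of Fabp4 UMIs. Of the 304 d0 UMIs the pericyte-like cluster held 279 and these 23 cells 167, so most UMIs of that cluster lay in cells with endothelial markers. Its level is therefore not one of its 754 cells at large. At resolution 1 in place of 0.5, an unnamed cluster of 23 cells was led by Fabp4 and met 4 endothelial, 3 pericyte and 5 hematopoietic markers. Among clusters of at least 50 cells, pericyte-like ones were also highest at d3 post-fracture (cluster 5, 391 CPM, 354 to 432), d3 post-polytrauma (877, 788 to 972) and d5 post-polytrauma (695, 653 to 739). At d5 post-polytrauma FAP/MP-like cluster 4 followed with 175 CPM (169 to 182) and held 27.2% of the Fabp4 UMIs of that library, against 8.53% in the pericyte-like cluster.

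Fabp5 (ENSMUSG00000027533, chr3:10012548-10016607), the fatty acid-binding protein named for epidermis and found in many dividing and activated cells, was lowest where Lpl was highest. It was at 11.3 CPM (9.78 to 13.0) in d0, 659 (654 to 664) at d3 post-fracture and 496 (490 to 502) at d5 post-fracture, 212 (209 to 215) at d3 post-polytrauma and 1068 (1063 to 1072) at d5 post-polytrauma. All injured libraries lay above d0 and no intervals overlapped. The share of cells with a UMI at equal depth was 1.10% (0.821 to 1.45) at d0 and 43.0% (42.1 to 43.9) at d5 post-polytrauma. The presence of Fabp5 differed between clusters of the same library. At d5 post-fracture 52.4% (42.4 to 62.4) of cells in the chondrocyte-like cluster had a UMI after thinning, against 3.93% (1.60 to 7.93) in FAP/MP-like cluster 0. At d3 post-fracture the pericyte-like cluster 4 had 1 such cell of 69 and the pericyte-like cluster 5 had 16 of 77, against 661 of 1321 in unnamed cluster 2. Summed over 5 proliferation genes, dividing-cell markers had 7.68 CPM at d0 and 335 to 543 CPM after injury, and their part in the Fabp5 result was not tested. A like-named gene, Fabp5l2, could share reads with Fabp5, so its level is uncertain to that extent.

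Apoe (ENSMUSG00000002985, chr7:19696109-19699188), which carries lipid between cells in lipoproteins, had 243 CPM (236 to 251) at d0, 23.5 (22.5 to 24.4) at d3 post-fracture and 55.7 (53.7 to 57.8) at d5 post-fracture, and 37.4 (36.3 to 38.6) at d3 and 20.3 (19.6 to 20.9) at d5 post-polytrauma. No intervals overlapped, with d0 highest and d5 polytrauma lowest. The top 1% of cells held 20.9% (d0) to 60.7% (d3 fracture) of Apoe UMIs, so these intervals are too narrow. In 3 of the injured libraries a small share of cells, those with hematopoietic markers, carried much of the Apoe. Cells with at least 2 UMIs of 6 hematopoietic markers held 42.3% of Apoe UMIs at d3 post-fracture, 49.2% at d3 post-polytrauma and 43.9% at d5 post-polytrauma, while they made up 1.35%, 2.5% and 1.5% of all UMIs. At d0 and d5 post-fracture they held 1.63% and 11.8%. The minimum of 2 UMIs was not adjusted for depth, and it marked 104 of 1468 cells in the deep d5 fracture library. The hematopoietic-like cluster of 100 cells at d3 post-polytrauma had 3566 CPM (3405 to 3733). Without the hematopoietic-like clusters Apoe was at 19.7 CPM at d3 and 12.1 CPM at d5 post-polytrauma.

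Apod (ENSMUSG00000022548, chr16:31296192-31314808), a lipocalin that binds small lipids, had 1346 CPM (1329 to 1363) at d0, 68.6 (67.0 to 70.2) at d3 post-fracture and 301 (296 to 306) at d5 post-fracture, and 42.5 (41.3 to 43.8) at d3 and 61.8 (60.7 to 62.8) at d5 post-polytrauma. The d0 level lay far above the others, d5 fracture came next, and no intervals overlapped. In d0 the perineurial-like cluster of 140 cells reached 16146 CPM (15751 to 16548) and held 27.0% of Apod UMIs, and unnamed cluster 8 reached 7386 (7151 to 7627). The perineurial name depended on the clustering. At resolution 1 in place of 0.5, Apod was among the leading genes of an unnamed cluster of 101 cells with 1 of 3 perineurial markers. It was not among those of a perineurial-like cluster of 39 cells with all 3. After thinning 99.1% (95.1 to 100) of cluster 8 cells had an Apod UMI, against 6.50% (4.85 to 8.50) of pericyte-like cells. FAP/MP-like clusters 0, 1, 2 and 5 of d0 lay between 1166 and 1510 CPM, while FAP/MP-like cluster 4, led by Stmn4 and Pi16, had 155. At d5 post-fracture FAP/MP-like cluster 0 had 1541 CPM (1508 to 1574) and 53.8% of the library's Apod UMIs in 12.1% of its cells.

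**Figure D1:**
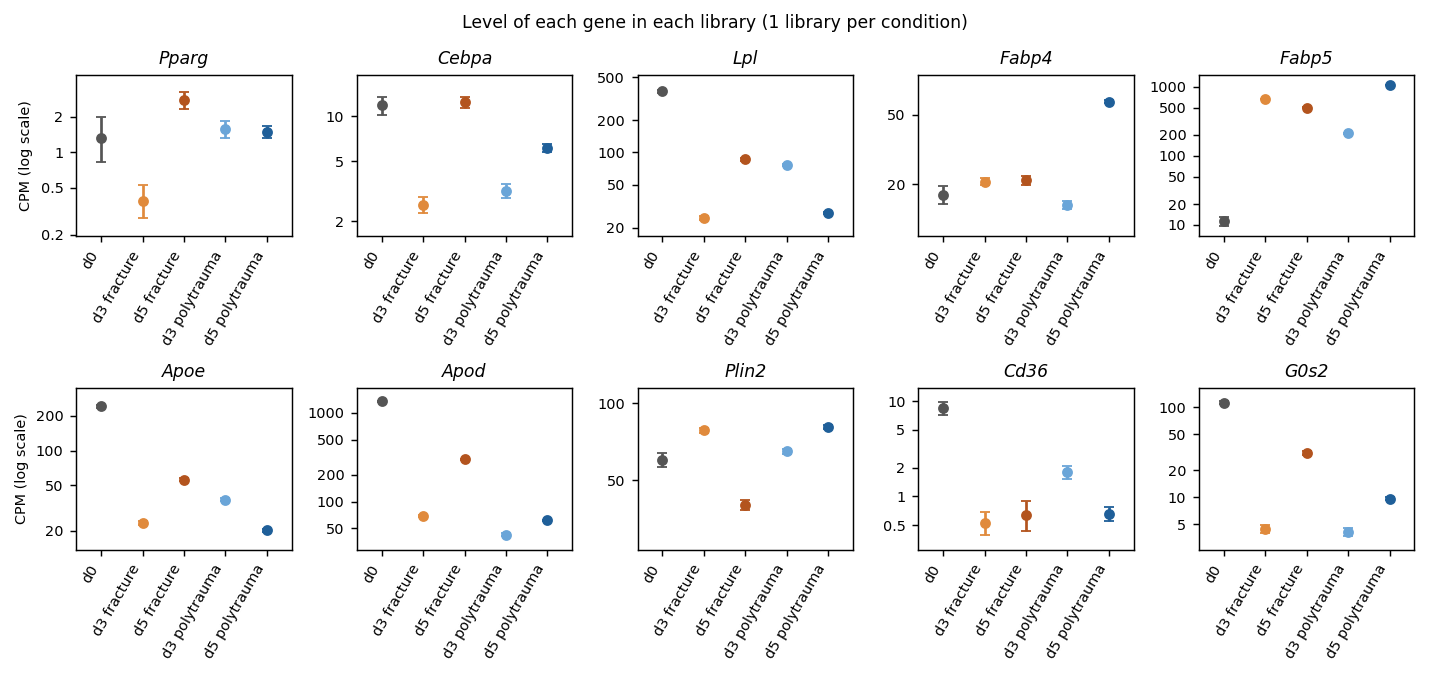
Level of each of the 10 genes in the 5 libraries, in CPM on a log axis whose range differs between panels. Points are single libraries and bars are exact Poisson 95% intervals. Lpl, Apoe, Apod, Cd36 and G0s2 are highest at d0, and Fabp5 is lowest there at 11.3 CPM against 212 to 1068 after injury.

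Plin2 (ENSMUSG00000028494, chr4:86648386-86670060) encodes the lipid droplet coat protein of non-adipose cells and varied least between libraries. Its level was 60.1 CPM (56.5 to 63.9) at d0, 78.3 (76.5 to 80.0) at d3 post-fracture and 39.9 (38.2 to 41.7) at d5 post-fracture, and 64.9 (63.3 to 66.4) at d3 and 80.9 (79.6 to 82.1) at d5 post-polytrauma. The d0 and d3 polytrauma intervals overlapped, as did d3 fracture and d5 polytrauma. The share of cells with a UMI at equal depth was 4.02% to 7.18%. Clusters of at least 50 cells ranged from 21.3 CPM in d0 pericyte-like cells to 801 CPM (726 to 882) in the hematopoietic-like cluster of d3 polytrauma. The next highest cluster of this size had 147 CPM (123 to 173). The smaller hematopoietic-like cluster of d5 polytrauma, with 29 cells, had 532 CPM (451 to 623).

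G0s2 (ENSMUSG00000009633, chr1:193272161-193273217), an inhibitor of adipose triglyceride lipase (the product of Pnpla2), had 113 CPM (108 to 118) at d0, 4.43 (4.03 to 4.87) at d3 post-fracture and 31.0 (29.5 to 32.5) at d5 post-fracture, and 4.11 (3.72 to 4.52) at d3 and 9.64 (9.22 to 10.1) at d5 post-polytrauma. Both d3 libraries overlapped and the other values were apart. In d0 G0s2 was highest in unnamed cluster 8 (638 CPM, 571 to 712) and in FAP/MP-like cluster 1 (463, 432 to 494), which held 44.3% of its UMIs. After thinning 45.5% (36.1 to 55.2) and 31.3% (27.6 to 35.2) of these cells had a UMI, against 0 of 136 tenocyte-like cells (upper bound 2.68%). At d5 the leading clusters were others: chondrocyte-like cells had 52.0 CPM (45.6 to 59.0) post-fracture and 47.7 (39.3 to 57.5) post-polytrauma. G0s2 overlaps Lamb3 on the other strand.

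**Figure D2:**
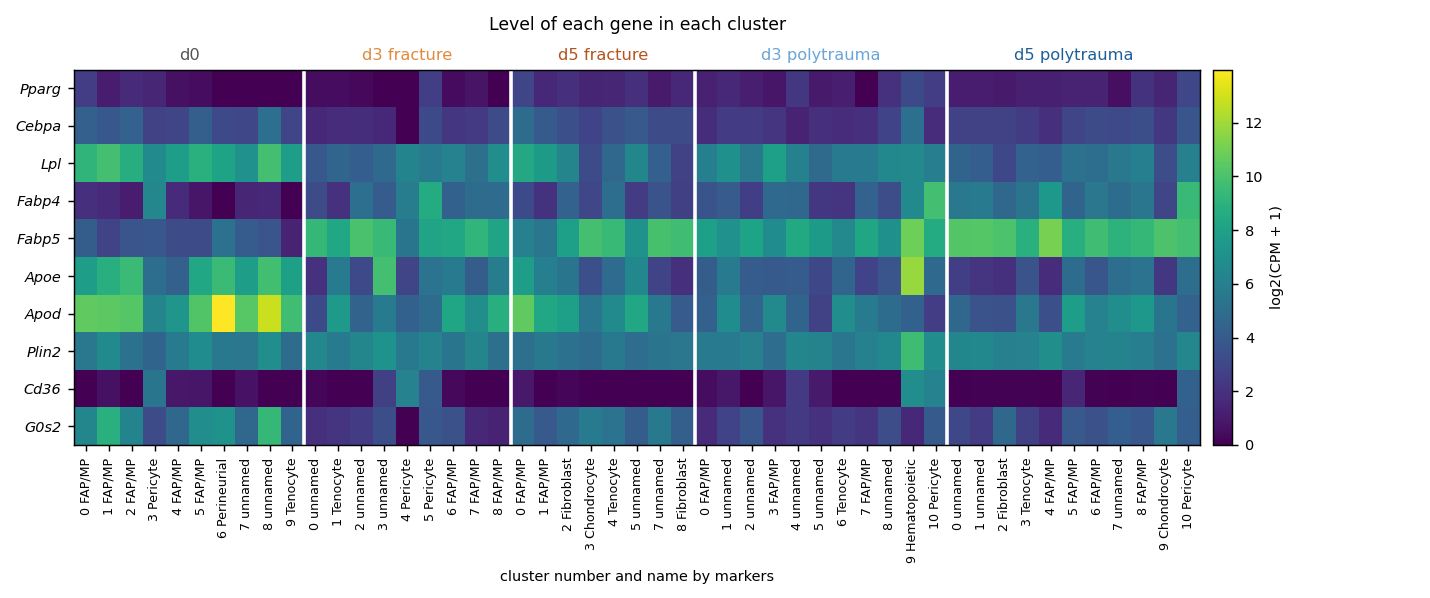
Level of each gene (rows) in the 49 clusters of at least 50 cells (columns, grouped by library), as log2(CPM + 1) by colour. Fabp5 is low across d0 and high after injury, and Apod is brightest in the d0 perineurial-like cluster (16146 CPM). Fabp4 stands out in pericyte-like clusters, and Cd36 in pericyte-like clusters and in the hematopoietic-like cluster of d3 polytrauma. The d0 pericyte-like cluster includes cells with endothelial markers.

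The first comparison asked how the lipid genes of muscle cells differed by d3 after a fracture of the neighbouring bone. Of the 10 genes, 8 had a mean of at least 5 CPM over the libraries, and Pparg and Cd36 did not. A gene that is high in 1 library passes this minimum through that library, so the counts below describe the members and are no test of them. Among these 8, Fabp5 was at least 2-fold higher at d3 post-fracture than at d0 and Cebpa, Lpl, Apoe, Apod and G0s2 at least 2-fold lower, while Fabp4 and Plin2 lay within 2-fold. Of all 9388 genes with that mean, 12.5% were at least 2-fold higher and 25.1% at least 2-fold lower. Fabp5 was 58.3-fold higher (95% interval of counting error 50.7 to 67.4), a ratio exceeded by 0.352% of genes. G0s2 was 25.5-fold lower (23.0 to 28.3), Apod 19.6-fold (19.1 to 20.2), Lpl 15-fold (14.3 to 15.7), Apoe 10.4-fold (9.86 to 10.9) and Cebpa 4.55-fold (3.77 to 5.49). Of the rare genes, Cd36 was 15.8-fold lower (11.5 to 22.1) and Pparg 3.38-fold lower (1.93 to 5.80). These ratios are relative to all UMIs, and cells were deeper at d3 post-fracture than at d0. Without adjustment for depth, Cebpa had a mean of 0.0443 UMIs per cell at d0 and 0.0462 at d3 post-fracture. Pparg had 0.00497 and 0.00698, so neither was lower on this scale. The means of Lpl, Apoe, Apod, Cd36 and G0s2 were lower at d3 post-fracture on both scales. The median of all genes was -0.27 on the log2 scale, and that of the 10 genes was -2.78. Relative to the median gene none of these directions turned. Without cells carrying hematopoietic or endothelial markers the Apoe levels were 241 and 13.9 CPM, a ratio of 0.0576 in place of 0.0964.

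Because the share of cell types differed between libraries, the same ratios were taken within FAP/MP-like clusters. These are clusters with at least 3 of 5 markers of fibro-adipogenic and mesenchymal progenitors (Prrx1, Cxcl12, Pdgfra, Ly6a and Cd34) that no list other than fibroblast outranked and whose depth was not low. They held 68.7% of d0 cells (clusters 0, 1, 2, 4 and 5), 24.3% at d3 post-fracture (6, 7 and 8), 20.9% at d5 post-fracture (0 and 1), 37.3% at d3 post-polytrauma (0, 3 and 7) and 40.4% at d5 post-polytrauma (4, 5, 6 and 8). The 5 markers that define the class also moved with the condition, with a sum of 2332 CPM at d0 and 933 at d3 post-fracture. Clusters 0 and 2 of d3 fracture, with 38.1% and 23.6% of its cells, met the criterion for 0 of them and were left out. Ratios within the class thus compare cells that kept the markers and are no correction for the share of cell types. The class was not uniform. Cluster 1 of d3 polytrauma, with 4 of the markers and 19.5% of cells, was left out because a pericyte marker was among its leading genes. Also left out were 2 shallow clusters with 3 markers. Cluster 4 of d0 (19.8% of its cells), clusters 0 and 7 of d3 polytrauma and clusters 4 and 6 of d5 polytrauma entered with 3. Without its cluster 4 the d0 class had 1331 CPM of Apod in place of 951. The ratios were therefore also taken over the named and unnamed clusters with at least 4 markers (0, 1, 2 and 5 of d0, 6, 7 and 8 of d3 fracture, 0 and 1 of d5 fracture, 1 and 3 of d3 polytrauma, 5 and 8 of d5 polytrauma), a choice made after the values were seen. Within the FAP/MP-like clusters Apod was at 951 CPM at d0 and 299 at d3 post-fracture, a ratio of 0.315 against 0.0510 over all cells. Lpl had 471 and 69.8 CPM (ratio 0.148) and Fabp5 9.73 and 341 (ratio 35.0). Fabp4 differed from its level over all cells, with 1.89 CPM (1.17 to 2.89) at d0 and 20.3 (18.2 to 22.6) at d3, a ratio of 10.7. In d0 54.9% of Fabp4 UMIs lay in 23 cells with at least 2 UMIs of 5 endothelial markers, and without cells that had hematopoietic or endothelial markers the Fabp4 ratio was 2.61 in place of 1.19. Pericyte markers also moved with the condition, with a sum over 5 genes of 726 CPM at d0 and 63.2 to 212 CPM after injury, and their part in the result was not tested.

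**Figure D3:**
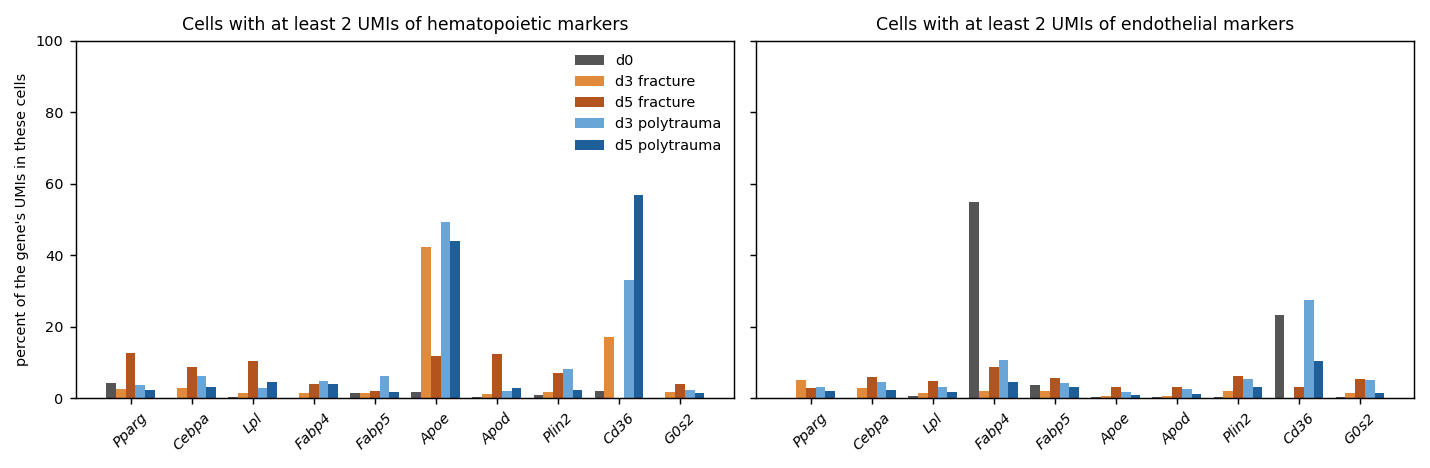
Percent of the UMIs of each gene found in cells with at least 2 UMIs of hematopoietic markers (left) or endothelial markers (right), by library. Cells with hematopoietic markers hold 42.3% to 49.2% of Apoe at d3 post-fracture and in both polytrauma libraries, and 23 cells with endothelial markers hold 54.9% of Fabp4 at d0.

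Between d3 and d5 post-fracture, 5 of the 8 genes were at least 2-fold higher and 0 at least 2-fold lower, beside 32.9% and 4.39% of all genes. G0s2 was 6.99-fold higher (6.28 to 7.78), Cebpa 4.77-fold (4.12 to 5.54), Apod 4.39-fold (4.26 to 4.51), Lpl 3.48-fold (3.32 to 3.66) and Apoe 2.38-fold (2.25 to 2.51). Fabp4 had a ratio of 1.02, Fabp5 of 0.753 and Plin2 of 0.510. Without cells carrying hematopoietic or endothelial markers the Apoe ratio was 3.92. Pparg, below the minimum, was 7.12-fold higher (4.96 to 10.4). The median of all genes was 0.53 higher on the log2 scale and that of the 10 genes 1.52. Relative to that median Apoe was 1.64-fold higher, Plin2 2.84-fold lower, and the ratios of Fabp4 (0.706) and Cd36 (0.828) changed direction. The d5 fracture library had the lowest number of cells and the highest depth, and with the labels as deposited this comparison gave 1 gene higher and 1 lower, with Apod and G0s2 below d3 post-fracture. Within FAP/MP-like clusters Fabp5 and Fabp4 were also past 2-fold, and both were lower at d5. Fabp5 was at 341 CPM at d3 and 56.9 at d5, a ratio of 0.167. Fabp4 was at 20.3 CPM (18.2 to 22.6) at d3 and 5.80 (4.36 to 7.57) at d5. The 5 genes that were higher over all cells were at least 2-fold higher there too.

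Polytrauma was compared with fracture at the same day, to see what injury to the muscle itself added. At d3, Lpl was 3.07-fold higher (2.93 to 3.21) and Fabp5 3.10-fold lower (3.06 to 3.15) after polytrauma, and the other 6 genes lay within 2-fold. Of all genes, 1.65% were at least 2-fold higher and 1.84% at least 2-fold lower, 3.49% together. The median was -0.03 over all genes and 0.10 over the 10 genes on the log2 scale. The Lpl ratio was exceeded by 0.533% of genes and the Fabp5 ratio lay below that of 99.4% of genes. Rare Pparg and Cd36 were 4.02-fold (2.82 to 5.86) and 3.38-fold (2.48 to 4.68) higher, and the Cd36 ratio was 1.67 without cells carrying hematopoietic or endothelial markers. Within progenitor clusters the values depended on which clusters were counted. In the FAP/MP-like clusters neither Lpl (1.4) nor Fabp5 (0.624) passed 2-fold and Apoe (0.311) and G0s2 (0.273) did, whereas over clusters with at least 4 markers Lpl (2.30) and Fabp5 (0.372) passed 2-fold and Apoe (0.827) and G0s2 (0.563) did not. Apod was past 2-fold under both, at 299 CPM at d3 post-fracture against 36.4 (ratio 0.122) or 108 (ratio 0.361) at d3 post-polytrauma. The 6 hematopoietic markers summed to 100.4 CPM at d3 post-polytrauma and 25.0 at d3 post-fracture, and the Apoe ratio of 1.60 over all cells was 1.43 without cells carrying hematopoietic or endothelial markers. Leaving out the hematopoietic-like cluster instead gave an Apoe ratio of 0.841. The d3 fracture library had no such cluster at resolution 0.5, so cells were removed from d3 post-polytrauma alone. In d3 fracture, cells with hematopoietic markers held 42.3% of Apoe UMIs, and at resolution 1 such a cluster of 24 cells appeared. The turn in direction therefore cannot be told apart from the uneven removal.

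At d5 all 8 genes passed 2-fold between polytrauma and fracture, 3 higher and 5 lower, beside 1.4% and 6.98% of all genes (8.37% in either direction). The median was -0.01 over all genes and -0.95 over the 10 genes on the log2 scale. Fabp4 was 2.80-fold higher after polytrauma (2.63 to 2.98), Fabp5 2.15-fold (2.12 to 2.18) and Plin2 2.02-fold (1.93 to 2.12). Apod was 4.87-fold lower (4.76 to 4.99), G0s2 3.21-fold (3.00 to 3.43), Lpl 3.13-fold (3.01 to 3.26), Apoe 2.75-fold (2.62 to 2.89) and Cebpa 2.00-fold (1.82 to 2.21). The values of Cebpa and Plin2 sat at the 2-fold limit, and each was within it under at least 1 alternative. Both libraries shared a barcode set, so this comparison is free of the difference between sets, and it rests on a d5 fracture library of 1468 cells. The 944 barcodes that the pair shared stand beside 2001 in d5 fracture and 13641 in d5 polytrauma, and the source of this overlap was not tested. By the rule on shared barcodes given below, 11 and 338 kept cells were marked. Without marked cells every ratio stayed on its side of 2-fold. Within FAP/MP-like clusters Fabp5 was 17.8-fold and Fabp4 12.3-fold higher, and Apod 0.120 and Lpl 0.139 times the fracture level. Over clusters with at least 4 markers, which leaves out cluster 4 of d5 polytrauma, these values were 9.79, 5.94, 0.189 and 0.185. Without cells carrying hematopoietic or endothelial markers the Apoe ratio over all cells was 0.214. With the conditions as labelled, 4 genes passed 2-fold, and Cebpa, Apod and G0s2 were higher and not lower.

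Between d3 and d5 post-polytrauma 3 genes were at least 2-fold higher and 1 lower, beside 25.2% and 3.44% of all genes (28.6% in either direction). The median of all genes was 0.46 higher on the log2 scale and that of the 10 genes 0.43. Fabp5 was 5.03-fold higher (4.96 to 5.10), Fabp4 3.89-fold (3.69 to 4.10) and G0s2 2.35-fold (2.11 to 2.62), and Lpl was 2.76-fold lower (2.67 to 2.86). Cebpa (1.93), Apod (1.45), Plin2 (1.25) and Apoe (0.541) lay within 2-fold. Relative to the median of all genes G0s2 was 1.71-fold higher, Apoe 2.54-fold lower and Plin2 changed direction (0.908). The comparisons share libraries with each other, so their values stand side by side and are not independent.

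**Figure D4:**
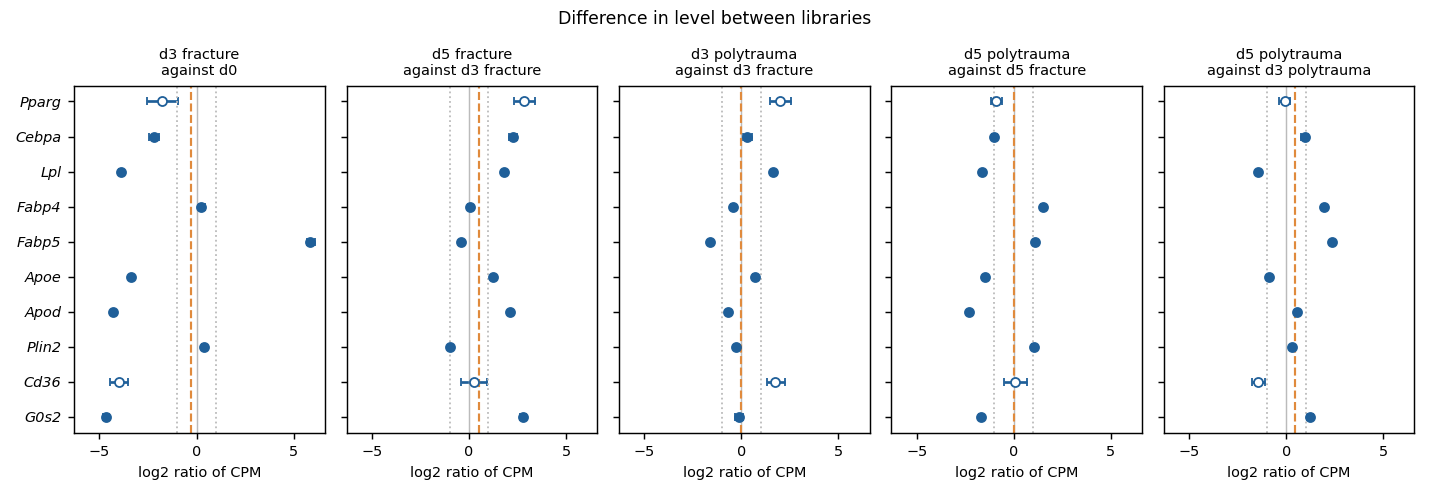
Log2 ratio of CPM for each gene in the 5 comparisons, with exact 95% intervals of counting error. Open points are Pparg and Cd36, which lie under the minimum of 5 CPM. Dotted lines mark 2-fold and the dashed line the median of all 9388 genes. At d3 against d0 Fabp5 lies at 5.87 and G0s2 at -4.67.

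Genes that adipocytes express were close to absent. None of 10 adipocyte genes (Adipoq, Plin1, Plin4, Cidec, Cidea, Lep, Retn, Cfd, Car3 and Lipe) reached a mean of 5 CPM. The 6 that served as cell type markers summed to 8.83 CPM at d0 and 1.17 to 2.20 CPM after injury. Lep had 0 UMIs in all 5 libraries and Cidec in all but d3 fracture. Of 29831 cells, 4 had at least 2 of these 6 markers (1 at d5 post-fracture and 3 at d5 post-polytrauma), and 0 had 3. Adipoq, the adipocyte hormone adiponectin, had 30 UMIs at d0, and 28 of them lay in 1 cell, singled out after its values were seen. That cell of 4556 UMIs also held 17 UMIs of Lpl, 10 of Apoe, 2 of Pparg and 2 of Fabp4, and 0 of Plin1, Cidec, Lep, Retn and Lipe. The injured libraries held 0, 0, 2 and 5 Adipoq UMIs.

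The adipogenic transcription factors outside the 10 genes were mostly low at d3 relative to all UMIs. Of 9 further factors with sufficient level, 7 were at least 2-fold lower at d3 post-fracture than at d0 and 0 higher, beside 25.1% and 12.5% of all genes. Without adjustment for depth, Ebf1, Srebf1 and Zfp423 were not lower per cell, while Cebpb, Cebpd, Ebf2 and Klf4 were. Ebf1 had 9933 UMIs in 4632 cells at d0 and 19679 in 5589 cells at d3 post-fracture. C/EBPβ and C/EBPδ act early in adipogenesis and in inflammation. Cebpb had 230 CPM at d0, 22.5 at d3 post-fracture and 382 at d5 post-fracture, and Cebpd 250.1, 24.5 and 662. Their d3 polytrauma levels were 33.3 and 19.2 and their d5 polytrauma levels 403 and 400.3, so that both were low at d3 and high at d5 in both injuries. Ebf2, a factor of the preadipocyte state, had 114 CPM at d0 and 14.2 to 49.5 after injury. At d5 against d3 post-fracture 5 of the 9 were higher (32.9% of all genes), and between d3 and d5 post-polytrauma 2 were higher (25.2%). Between polytrauma and fracture 0 differed by 2-fold at d3 (3.49% of all genes) and only Klf4 did at d5 (0.373, beside 8.37% of all genes).

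Among 7 other genes of lipid uptake and lipoprotein handling, 5 were lower at d3 post-fracture than at d0 (25.1% of all genes), including Fabp3 (ratio 0.185), Slc27a1 (0.223) and Vldlr (0.238). From d3 to d5 post-fracture 5 were higher (32.9% of all genes), Abca1 by 4.92-fold. At d5 5 were lower after polytrauma than after fracture (6.98% of all genes), Abca1 with a ratio of 0.318. At d3 after polytrauma Vldlr, a receptor for lipoproteins rich in triglyceride, was 2.60-fold higher than after fracture, and none was lower. Of all genes 1.65% were higher and 1.84% lower in that comparison.

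In the lipid droplet and lipolysis list, Mgll and Pnpla2, which encode monoglyceride lipase and adipose triglyceride lipase, were lower at d3 post-fracture, as was G0s2. Mgll was at 48.1 CPM in d0 and 1.27 at d3 post-fracture, and Pnpla2 at 37.6 and 3.91. Hilpda, a droplet protein induced by low oxygen, had 71.7 CPM at d0, 150.3 at d3 post-fracture and 34.4 at d5 post-fracture, and 199 at d3 and 46.3 at d5 post-polytrauma. Over the 9 genes of this list other than Plin2 and G0s2, 1 was higher and 3 were lower at d3 post-fracture, near the shares of all genes (12.5% and 25.1%).

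Of 10 genes of fatty acid synthesis, 1 was higher and 2 were lower at d3 post-fracture than at d0, near the 12.5% and 25.1% of all genes: Acsl4 (3.14), Scd1 (0.284) and Acsl1 (0.361). Fasn, the fatty acid synthase, lay between 26.5 and 39.9 CPM in all libraries. Of 9 measured targets of PPAR receptors and fatty acid oxidation genes, Angptl4, an inhibitor of lipoprotein lipase, had 33.0 CPM at d0 and 396 at d3 post-fracture, a 12.0-fold difference opposite to that of Lpl, and 212 to 244 CPM in the other injured libraries. Cpt2 (2.03) was also higher, and Acot2 (0.360) and Acadm (0.373) were lower. In the sterol list 4 of 11 genes were lower at d3 post-fracture (25.1% of all genes), among them Idi1 (ratio 0.244), Insig1 (0.277) and Hmgcs1 (0.390), and Soat1, which esterifies cholesterol, was higher at 11.8 and 25.7 CPM. At d5 Idi1 (2.22) and Sqle (2.17) were higher after polytrauma than after fracture (1.4% of all genes). No gene of the synthesis or oxidation list with a mean of at least 5 CPM was past 2-fold between injuries at either day. Of all genes 3.49% were past it at d3 and 8.37% at d5, and lists this short would hold few such genes at those shares. Of 6 genes listed for a link to restraint of adipogenesis, 2 were higher and 3 lower at d3 post-fracture, beside 12.5% and 25.1% of all genes. Sfrp1, a modulator of WNT signals whose place in this list is uncertain, was 11.8-fold higher than at d0. Dlk1, the preadipocyte factor Pref-1, had a ratio of 0.137. Between polytrauma and fracture 1 of the 6 was higher and 1 lower at d3, beside 1.65% and 1.84% of all genes. At d5 1 was higher and 2 were lower, beside 1.4% and 6.98%. Dlk1 was 4.53-fold higher after polytrauma than after fracture at d3, and 2.55-fold at d5. Sfrp1 was lower at both days (ratios 0.391 and 0.495) and Klf2 at d5 (0.395).

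Across the 49 clusters of at least 50 cells, Lpl and Fabp5 ran opposite to each other (Pearson r = -0.826 on log2(CPM + 1)). Clusters of 1 library share its depth and free RNA, and these values are descriptions. Within libraries r was -0.938 over 8 clusters of d5 fracture, -0.648 over 9 of d3 fracture, -0.480 over 11 of d5 polytrauma, -0.130 over 11 of d3 polytrauma and -0.0528 over 10 of d0. Lpl and Apod ran together in each library, with r from 0.537 to 0.967 and 0.750 over all clusters. For Apoe and Apod r was 0.879 in d0, 0.488 in d3 fracture, 0.984 in d5 fracture, 0.788 in d5 polytrauma and -0.0251 in d3 polytrauma. In d3 polytrauma the hematopoietic-like cluster held 47.6% of Apoe UMIs and 0.228% of Apod UMIs. The d5 polytrauma value left out such a cluster of 29 cells, which held 40.3% of Apoe UMIs and 0.024% of Apod UMIs. The contrast between the 2 polytrauma libraries thus depends on the minimum of 50 cells. For Fabp4 and Cd36 r was 0.93 at d0, 0.590 at d3 post-fracture, 0.0119 at d5 post-fracture, 0.856 at d3 post-polytrauma and 0.671 at d5 post-polytrauma. The d5 fracture value left out the pericyte-like cluster, which had 18 cells and so fell under the minimum of 50. That cluster held 34.7% of the Fabp4 UMIs and 42.4% of the Cd36 UMIs of its library.

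**Figure D5:**
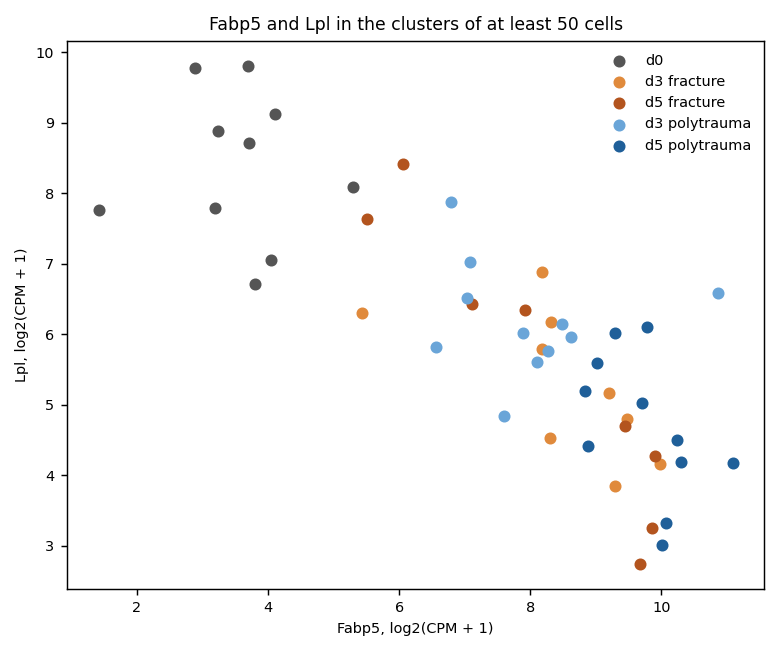
Level of Lpl against that of Fabp5 in the 49 clusters of at least 50 cells, both as log2(CPM + 1), with colours for libraries. The d0 clusters lie at upper left and the d5 polytrauma clusters at lower right (r = -0.826 over all, -0.938 in d5 fracture and -0.0528 in d0).

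The genes also met in single cells. At d0, 24.1% of thinned cells with an Apod UMI had one of Apoe, against 8.15% of those without Apod. Of cells with G0s2, 43.8% had Lpl, against 25.5% of the rest. Of 35 cells with Fabp4, 6 (17.1%) had Cd36, against 0.609% of the others. At d3 post-fracture 10.3% of cells with Apod had Fabp5 and 35.3% of cells without it. In the d5 fracture library 7.21% of cells with Lpl had Fabp5, against 26.5%, and at d5 post-polytrauma 69.2% of cells with Fabp4 had Fabp5, against 41.9%. These shares describe cells of single libraries.

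The genes whose level over the 49 clusters was most like that of each member were, by Pearson r, Dcn (0.908), Aldh1a1 and Fmo1 (both 0.875) for Apod, H2-Q4 (0.909), Gstm1 (0.90) and Sqor (0.890) for Lpl, and Gm2a (0.907) and Selenop (0.876) for Apoe. For G0s2 they were Vwa1 (0.887), Enpp2 (0.850) and Ltbp4 (0.843), for Fabp5 Abracl (0.891), Yeats4 (0.887) and Glipr1 (0.879), and for Cd36 Rgs5 (0.823), Apold1 (0.819) and Arpc3 (0.818). Weaker likeness was found for Cebpa (Sh3bp5, Ssh2 and Pid1, 0.796 to 0.799), Fabp4 (Vasp, Actg2 and Tln1, 0.740 to 0.776), Plin2 (Arpc5, Cdc42 and Tank, 0.650 to 0.696) and Pparg (Ifngr2, Eea1 and Inpp5f, 0.609 to 0.629).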

How the data were processed

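Single-cell libraries of GFP+ cells were processed by the authors with Cell Ranger (3.1.0 in the file headers, while the methods of the study name a later version) on mm10, with Seurat 3.1.2 in the submitters' notes. They deposited raw UMI counts per gene and barcode, without normalization. The kit is given as 3′ v.2 for all libraries. Depth was 18247307 to 204474562 UMIs per library.

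Counts of cells that passed the limits given above were summed per library. Ratios of CPM were given exact conditional binomial 95% intervals, and a gene was called at a 2-fold difference. The intervals were checked only on simulated Poisson counts, which follow the model they assume. That check did not cover UMIs that lie in few cells. Libraries were clustered separately in scanpy 1.11.5 (Leiden, resolution 0.5, 2000 variable genes, 20 components, 15 neighbours), and neither the 10 genes nor any marker entered the clustering. A cluster was named from at least 3 markers that 10% of its cells held and whose level exceeded the average over the remaining clusters. It stayed unnamed where a list other than fibroblast had a larger share of its markers so detected or more of them among the 10 leading genes. It also stayed unnamed with no marker of its type among those 10, if the type was neither FAP/MP nor fibroblast or if depth was under 1/3 of the library median. Names were rebuilt here and may differ from those of the study. Scrublet called 0 to 14 doublets per library, too few to have worked, so cells were kept and the highest scores (0.8% per 1000 cells) were removed as an alternative. A barcode seen in another library was marked as shared unless it held 10 times more UMIs. Other alternatives were conditions as labelled, another scaling, equal weight per cell, other limits on genes and UMIs, and subsets of cells. The named genes are the 10 members, up to 4 of each list with the greatest change and the 3 genes most like each member. Some genes that met this rule are not reported here. GENCODE M21 gave gene positions. Members and lists were chosen with earlier results of these data known. Other tools were Python 3.11.15, numpy 2.4.6, scipy 1.17.1 and matplotlib 3.10.9.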

Additional observations from a re-analysis of the deposited data

Results flagged for a closer look

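Lpl moved in opposite directions from d3 to d5 in the 2 injuries, with a CPM ratio of 3.48 after fracture and 0.362 after polytrauma. Fabp5 did the reverse, with 0.753 after fracture and 5.03 after polytrauma. For Apoe the ratios were 2.38 and 0.541, and cells with hematopoietic markers held 42.3%, 11.8%, 49.2% and 43.9% of its UMIs at d3 and d5 post-fracture and d3 and d5 post-polytrauma. For Plin2 they were 0.510 and 1.25, of which the second was 0.908 relative to the median of all genes. Each condition is 1 library, so the difference was not tested for any of the 4 genes. Within FAP/MP-like clusters the pairs were 4.04 and 0.401 for Lpl and 0.167 and 4.77 for Fabp5, while those of Apoe were 3.23 and 1.44. Over clusters with at least 4 FAP/MP markers the Apoe pair was 3.23 and 0.852, so its direction after polytrauma depended on the clusters counted.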

How the results depend on the processing

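The counts of members past 2-fold depended most on the conditions of the exchanged libraries. With conditions as labelled they were 2 in place of 5 for d5 against d3 fracture, 5 in place of 2 for d3 polytrauma against d3 fracture, 4 in place of 8 for d5 polytrauma against d5 fracture and 8 in place of 4 for d5 against d3 polytrauma. Of ratios past 2-fold, those that turned direction were, in the first of these, Apod (0.620) and G0s2 (0.926), in the third Cebpa (1.93), Apod (1.45) and G0s2 (2.35), and in the last Cd36 (1.04) and G0s2 (0.311). Of ratios within 2-fold, Fabp4 turned in the first (0.736) and second (1.02), Apod (4.39) and G0s2 (6.99) in the second, Cd36 (0.370) in the third, and Cebpa (0.499) and Apod (0.205) in the last. At a limit of 1.5-fold, and likewise without the filter on low values, d3 polytrauma against d3 fracture gave 4. With equal weight per cell d5 polytrauma against d5 fracture gave 5. Median-of-ratios scaling gave 4 higher and 1 lower in place of 5 and 0 for d5 against d3 fracture, and 2 and 2 in place of 3 and 1 for d5 against d3 polytrauma. Of 50 ratios per alternative, the number that stayed on their side of 2-fold was 50 without a minimum of UMIs and without shared barcodes, 49 without possible doublets, 45 under median-of-ratios scaling and without cells with hematopoietic or endothelial markers, 42 with equal weight per cell 36 in FAP/MP-like clusters only and 26 with conditions as labelled. Over named and unnamed clusters with at least 3 or at least 4 FAP/MP markers, also chosen after seeing the data, it was 37 and 41. Leaving out the hematopoietic-like clusters, chosen after seeing the data, gave 5 in place of 4 for d5 against d3 polytrauma and left the other 4 counts as they were. Only the polytrauma libraries had such clusters at resolution 0.5, so nothing was removed from the others.

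No paired analysis was possible because each condition has 1 library and the labels give no replicate numbers. For the same reason no replicate was left out. Precision is limited by counts for Pparg and Cd36, and d0 is the shallowest library.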
